A study of Mus musculus with 6 samples.

Results

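The clustered protocadherins, the products of a long gene cluster on mouse chromosome 18, were examined in RNA-seq of the cerebral cortex at 2 ages. The members were chosen by symbol: a deposited gene belonged if its symbol was Pcdha, Pcdhac, Pcdhb, Pcdhga, Pcdhgb or Pcdhgc followed by a number. This gave 58 of the 55421 deposited genes, namely 14 of the alpha cluster (12 alternate members and the C-type members Pcdhac1 and Pcdhac2), 22 of the beta cluster, and 22 of the gamma cluster (12 of type A, 7 of type B and the C-type members Pcdhgc3, Pcdhgc4 and Pcdhgc5). The samples were cortices of 3 young adult mice of 6 months (mice 10, 11 and 17) and 3 old mice of 24 months (mice 2, 4 and 5). All were wild-type C57BL/6J males killed by cervical dislocation under isoflurane, with 1 library per mouse made from 10 ng of total RNA, and the comparison asks which members differ with age.

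Clustered protocadherins are cadherin-like adhesion proteins of the neuronal surface. Each alternate member has its own promoter, and a neuron switches on its own small combination of them through the DNA-binding protein CTCF, the cohesin complex and promoter methylation, whereas the C-type members are used more broadly. The proteins bind to copies of themselves on other membranes, and this matching lets a neurite recognise and avoid branches of its own cell. In the alpha and gamma clusters a large variable exon, which encodes the extracellular part, is spliced to small constant exons that encode a shared cytoplasmic end, while beta members lack such exons.

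On GRCm38 (GENCODE vM21 annotation), all members lay on the plus strand of chromosome 18. The alpha cluster spanned 36930184 to 37187661, the beta cluster 37264938 to 37524479, and the gamma cluster 37661793 to 37841873. Every beta member was annotated with 1 exon, and its protein had 772 to 829 residues. Alpha and gamma members had 4 exons in their longest coding transcript. The last 3 coding exons were the same throughout a cluster and gave 152 shared residues in the alpha cluster and 124 in the gamma cluster, of proteins of 934 to 1006 and 912 to 944 residues. The variable exon therefore carried most of each protein, with 2346 to 2562 coding bases in the alpha cluster and 2364 to 2460 in the gamma cluster.

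This gene structure limits what a gene count measures. A read inside a constant exon lies on all members of its cluster at once, and only part of a member's exonic bases lies in no other gene: 404 to 3028 bases for alpha members (median 2475) and 0 to 4614 for gamma members (median 2587). Pcdhga10 had none, because annotated read-through genes cover its variable exon, and it received 1, 1 and 5 counts in mice 10, 11 and 17 and 4, 0 and 3 in mice 2, 4 and 5. Its level is therefore not measured. Pcdha4, with 404 bases of its own, received 13, 9 and 10 counts against 8, 5 and 6. That reads in the constant exons were largely not credited to single members is inferred from these low counts, and the levels per kb given here rest on it. In the beta cluster the similarity of the members was no comparable limit: of all stretches of 69 bases in a beta transcript, 0 to 9.47% occurred in another member, against 48.02 to 60.45% for alpha and 17.63 to 64.91% for gamma transcripts. Of 14 genes of other names that overlap member exons, 7 had enough counts to be tested, 0 of them differed with age at 10% FDR, and the highest count of any was 81. The library kit is not stated to keep strand, so reads from a member and from an antisense gene over it could not be told apart.

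The libraries held 29495379 to 36494240 counts, of which 0.0505 to 0.0689% fell on the 58 members. Counts were scaled by edgeR's TMM method, with factors of 0.921 to 0.946 at 6 months and 1.04 to 1.10 at 24 months, and levels are given as TMM-scaled CPM, the count of a gene relative to the scaled total of its library. Sensory receptor genes (1831 olfactory, vomeronasal, taste and trace amine receptor genes) had a higher density of counts at 24 months (0.0852, 0.0718 and 0.053 CPM per exonic kb) than at 6 months (0.022, 0.0239 and 0.0247). The paper reports sensory perception as the main process among genes that rose with age. Subtracting this density, as done below, treats such counts as background, and whether they are background or expression was not tested. It was subtracted over the whole exonic length (median 5356 bases for alpha and 4819 for gamma members). That includes the constant exons, whose reads were by inference largely not credited to single members. The subtraction may thus be too large for alpha and gamma members, which was not tested. The summed CPM of 8 neuron markers was 6857.1 to 9232.0 at 24 months and 9322.1 to 10894.5 at 6 months, whereas the sums of the astrocyte, oligodendrocyte, precursor, microglia, endothelial, choroid plexus and meningeal markers overlapped between the ages. Snap25 and Syt1 held most of the neuron sum (means of 5160.4 and 2164.8 CPM at 6 months), while Map2, Nefl, Slc17a7, Gad1 and Gad2 overlapped between the ages. The median log2 fold change of the 8 was -0.23, beside -0.14 for all genes above 1 CPM. All 8 neuron markers were expressed, as the label cortex implies, and 1 of them was lower at 10% FDR. In bulk tissue, fewer cells of a type and less RNA per cell cannot be told apart. The part of neuron content or of the sensory receptor density in the age differences of the members was not tested.

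Levels were compared between members per kb of the bases a gene has to itself, over the 57 members that have any. They spanned a wide range, from 0.0447 CPM per kb for Pcdhb1 to 25.9 for Pcdhgc5, with a median of 1.73. Of the 57 members, 44 had a mean level above 10 times the highest sensory receptor density, and 54 of the 58 members had a mean above 1 CPM. The C-type members Pcdhgc5 and Pcdhac2 stood at the top, followed by Pcdhb9, and no other member exceeded 6.85 CPM per kb. Pcdhgc5, a gamma protein that binds to GABA-A receptors, had 31.8, 33.3 and 31.9 CPM per kb in mice 10, 11 and 17 and 18.3, 17.2 and 22.5 in mice 2, 4 and 5. Pcdhac2, which serotonergic axons need to space themselves, had 23.2, 33.5 and 27.2 at 6 months and 16.7, 20.5 and 23.8 at 24 months. The order of these 2 members did not hold in every mouse, since Pcdhac2 was the higher one in mice 11, 4 and 5. Pcdhb9 reached 13.5, 12.8 and 9.7 CPM per kb at 6 months and 14.5, 16.9 and 16.9 at 24 months, below both in each mouse.

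**Figure D1:**
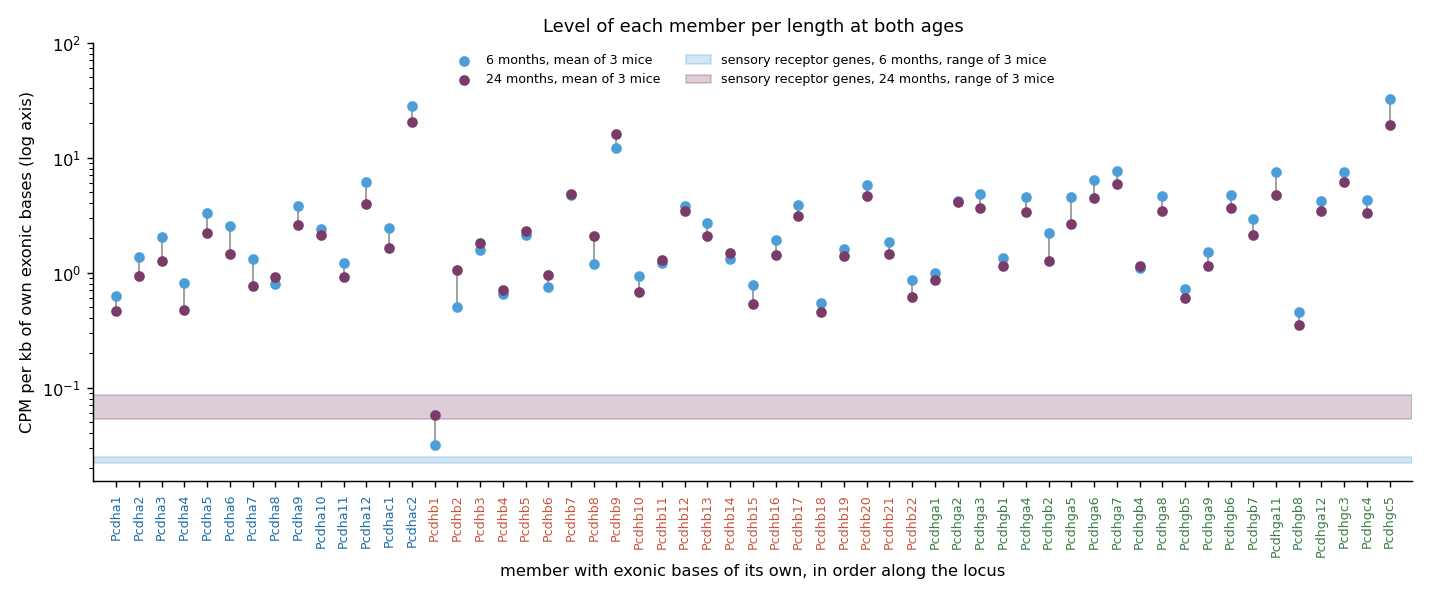
The level of each member with exonic bases of its own, in CPM per kb of those bases on a log axis, as the mean of 3 mice at 6 months (light blue) and 24 months (purple), in order along the locus with alpha names in blue, beta in red and gamma in green. The horizontal bands give the range of the sensory receptor density over the 3 mice of each age, 0.022 to 0.0247 and 0.053 to 0.0852. Pcdhac2, Pcdhb9 and Pcdhgc5 stand above the rest, and Pcdhb1, at 0.0447 over both ages, is the only member near the bands.

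Levels per kb differed between the clusters in their medians, while their ranges overlapped. Pcdha12 was the highest alternate alpha member, at 6.14 CPM per kb at 6 months and 3.97 at 24 months, followed by Pcdha9 (3.18 over both ages). Gamma members had a median of 3.83 CPM per kb over both ages, against 1.83 for alpha and 1.57 for beta members. Pcdhgc3, which binds the Wnt pathway protein Axin1, lay next to Pcdhga7 (6.85 and 6.81 CPM per kb), and their values overlapped in mice of both ages. Only 2, 3 and 3 counts fell on Pcdhb1, the first beta member, in the young mice and 8, 4 and 3 in the old mice. At 0.0313 and 0.0580 CPM per kb it lay at about the sensory receptor density of each age.

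The summed level of a cluster rests on more counts than any member and showed which clusters were lower at 24 months. Alpha members summed to 129.8, 172.3 and 140.1 CPM in mice 10, 11 and 17 and to 86.3, 103.9 and 124.7 in mice 2, 4 and 5, a mean of 147.4 ± 22.2 against 105.0 ± 19.2 (SD, n = 3) and a ratio of 0.712. Gamma members summed to 323.8, 356.8 and 327.5 CPM at 6 months and to 207.9, 212.2 and 275.3 at 24 months, or 336.0 ± 18.1 against 231.8 ± 37.7 and a ratio of 0.69. With TMM every old mouse lay below every young mouse in both clusters. Beta members summed to 193.2, 198.9 and 175.9 CPM at 6 months and to 164.8, 198.5 and 210.8 at 24 months, and here the ages overlapped, at 189.3 ± 12.0 against 191.4 ± 23.9 and a ratio of 1.01.

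**Figure D2:**
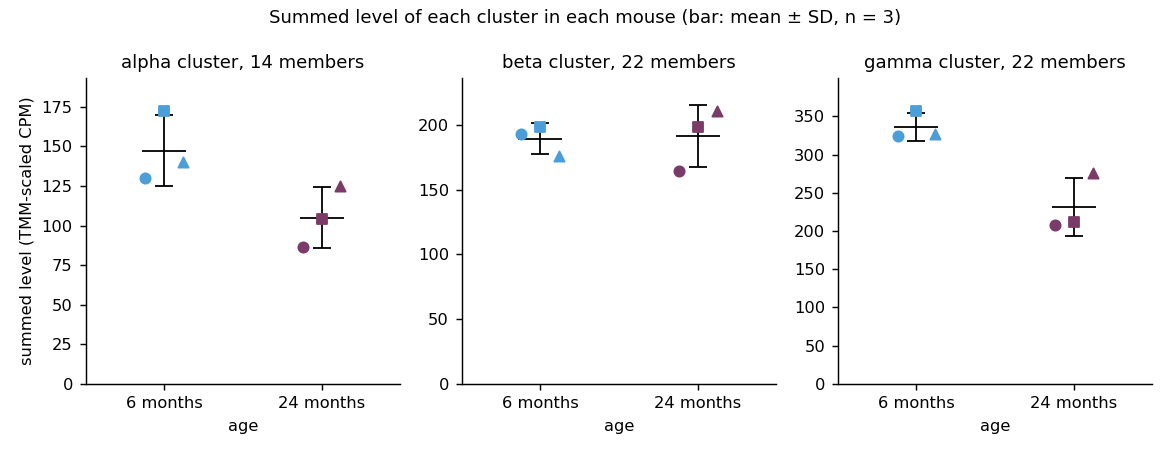
The summed level of the members of each cluster in TMM-scaled CPM, with 1 point per mouse (circle, square and triangle for mice 10, 11 and 17 at 6 months and for mice 2, 4 and 5 at 24 months) and the mean ± SD (n = 3) as a bar. With this scaling the old mice lie below the young mice in the alpha and gamma clusters, and the ages overlap in the beta cluster.

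The size of these ratios depended on the scaling. Each scaling below multiplies all cluster sums of a mouse by the same factor, so it can hardly change the order of the clusters. With library totals in place of TMM, the ratios were 0.81 for alpha, 1.15 for beta and 0.786 for gamma, and the alpha sums overlapped between the ages while the gamma sums did not. Relative to the summed neuron markers, mostly Snap25 and Syt1, the log2 ratio of 24 to 6 months was -0.20 for alpha, 0.32 for beta and -0.24 for gamma. With TMM it was -0.49, 0.02 and -0.54. Relative to these markers, the ages overlapped for alpha and gamma but not for beta. No test was run on the sums, and with 3 mice per age an exact permutation test cannot go below p = 0.1.

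Shares of counts do not depend on the scaling between libraries. The beta cluster took 29.9, 27.3 and 27.3% of the members' counts in mice 10, 11 and 17 and 35.9, 38.6 and 34.5% in mice 2, 4 and 5. The gamma cluster took 50.1, 49.0 and 50.9% at 6 months and 45.3, 41.2 and 45.1% at 24 months. Neither share overlapped between the ages. The alpha share overlapped, at 20.1, 23.7 and 21.8% against 18.8, 20.2 and 20.4%. The makeup of the members' counts thus shifted by 8.16 percentage points towards the beta cluster in the mean.

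The age difference of single members came from the quasi-likelihood test of edgeR over the 32905 genes with at least 10 counts, which all 58 members passed. At 1% FDR, the threshold the study used, 0 members and 0% of all genes were called. The study itself reported differentially expressed genes at this threshold, with edgeR, another filter and a test it does not name. Other tests run here also called genes at 1% FDR, as given below. At an unadjusted p under 0.05, 22 members were lower and 3 higher at 24 months, or 37.9 and 5.17% of members, where 13.1% of all genes were lower and 17.6% higher. At 10% FDR, 13 members were lower (22.4%) and 3 higher (5.17%), against 8.33% and 10.0% of all genes. In 20 members (34.5%) every old mouse lay below every young mouse and in 2 (3.45%) every old mouse lay above, against 16.3% and 20.0% of all genes. So the members as a group had more lower and fewer higher calls than all genes tested. The 2 sets differ in level, since 54 of the 58 members but only 15761 of the 32905 genes had a mean above 1 CPM. The median log2 fold change was -0.14 for those 15761 genes and 0.15 for all genes tested. Calls were not counted for genes above 1 CPM alone, so the part of level in this difference was not tested. The clusters divided the calls: alpha had 7 lower and 0 higher at 10% FDR, gamma 5 and 0, and beta 1 and 3.

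The likelihood ratio test of edgeR called 3 members lower and 1 higher at 1% FDR, its exact test called 2 members and DESeq2 1, where these tests called 5.18, 3.41 and 0.836% of all genes. The calls at 10% FDR depended on the mice and on the scaling. With library totals 4 members were lower and 3 higher. With the sensory receptor density subtracted over whole exonic lengths 0 members were called (28 of all genes). The median log2 fold changes were then -0.57 for alpha, -0.05 for beta and -0.31 for gamma members. For alpha and gamma members this subtraction may be too large, as said above. Without mouse 10, 11 or 4 the count was 0. Without mouse 2 there were 2 calls, without mouse 17 there were 8, and without mouse 5 there were 31. The calls over all genes moved likewise, to 0, 1 and 0 genes without mice 10, 11 and 4 and to 176, 2476 and 7998 without mice 2, 17 and 5, against 6040 with all mice.

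The median log2 fold change of 24 against 6 months was -0.56 for alpha members, -0.06 for beta members and -0.38 for gamma members, beside 0.15 for all genes tested and -0.14 for the 15761 genes above 1 CPM. Library totals moved the genes above 1 CPM to 0.05, a shift of 0.19, and the 3 clusters to -0.38, 0.14 and -0.19. With TMM the alpha and gamma members thus lay below the median of expressed genes, and the beta members above it. Library totals shift all genes by nearly the same amount, so they could not change this order. Of the 57 members with bases of their own, 44 were fitted lower with TMM (13 of 14 alpha, 11 of 22 beta and 20 of 21 gamma) and 40 with library totals. The share of all genes fitted lower was not counted. The median of genes above 1 CPM was itself -0.14 with TMM and 0.05 with library totals. The alpha member fitted higher was Pcdha8 (42, 103 and 51 counts against 61, 46 and 120), and the gamma member was Pcdhgb4 (100, 153 and 133 against 128, 123 and 163), both with overlapping ages and neither with a call. The difference between clusters was not tested.

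**Figure D3:**
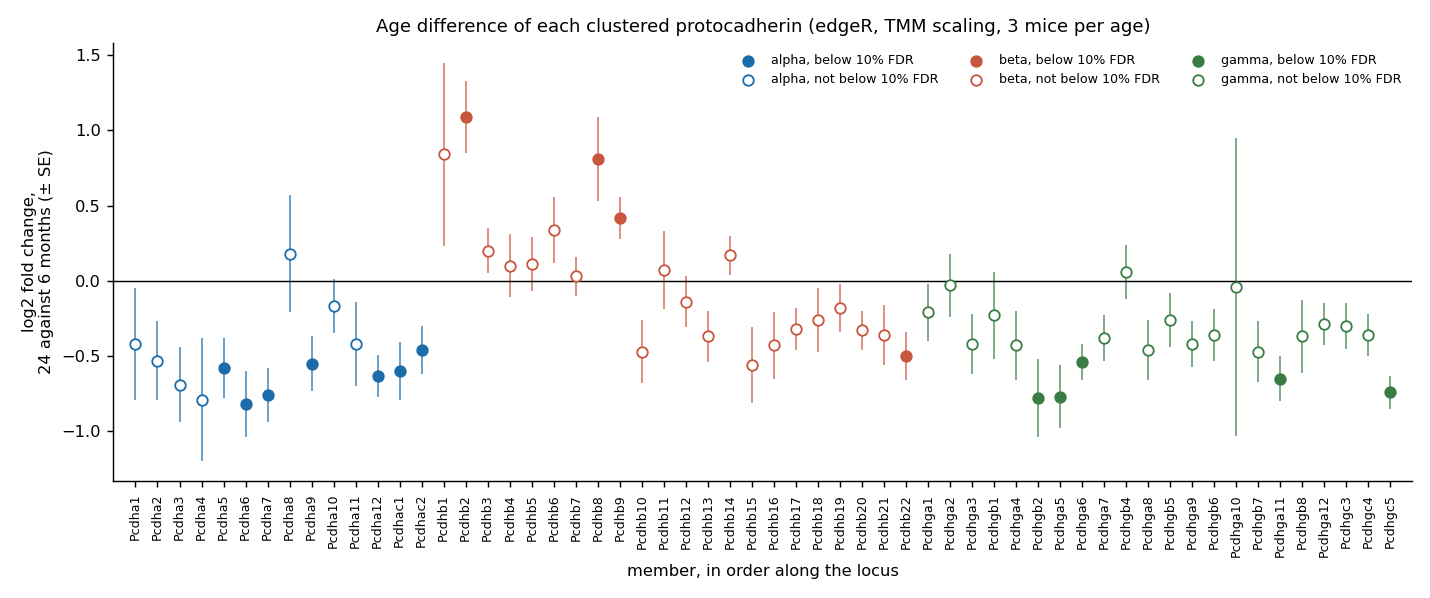
The log2 fold change of 24 against 6 months with its standard error (edgeR, TMM scaling, 3 mice per age) for each of the 58 members in order along the locus, with alpha members in blue, beta in red and gamma in green. Filled points are below 10% FDR. The alpha and gamma members lie mostly below 0, with medians of -0.56 and -0.38, and the beta members run from above 0 (Pcdhb1 to Pcdhb9, median 0.34) to below it (Pcdhb10 to Pcdhb22, median -0.33). This division of the beta members was chosen after the values were seen.

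Pcdhgc5 had the most counts of all members and the smallest adjusted p. It was at 146.7, 153.4 and 146.8 CPM in mice 10, 11 and 17 and at 84.4, 79.4 and 103.6 in mice 2, 4 and 5. The young mice lay within a narrow band and every old mouse was below it. The log2 fold change was -0.74 (SE 0.11), or 0.599 of the young level, with an adjusted p of 0.0514 by edgeR's quasi-likelihood test. It was -0.55 with library totals (adjusted p = 0.0494) and -0.86 to -0.66 when each mouse was left out in turn, with adjusted p of 0.0127 to 0.166. The likelihood ratio test of edgeR gave it an adjusted p of 0.000161 and DESeq2 one of 0.000126. Pcdhgc5 also lost share within its cluster, from 45.3, 43.0 and 44.8% of gamma counts to 40.6, 37.4 and 37.7%, so its fall was larger than that of the other gamma members together, whose sum had a ratio of 0.762.

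The other C-type gamma members fell short of 10% FDR. Pcdhgc4, which cortical interneurons need to survive development, was at 13.3, 17.6 and 13.3 CPM in the young mice and 11.1, 11.7 and 11.7 in the old mice. Its log2 fold change was -0.36 (SE 0.14), with an adjusted p of 0.122 by the quasi-likelihood test of edgeR. All old mice lay below all young mice. Pcdhgc3 was at 12.9, 15.4 and 13.0 CPM against 10.1, 10.2 and 13.3, and its ages overlapped (log2 fold change -0.30, SE 0.15). The C-type gamma members together held 53.4, 52.3 and 52.9% of gamma counts at 6 months and 50.8, 47.7 and 46.7% at 24 months, and type A members rose in share from 36.4, 36.9 and 36.7% to 38.7, 39.9 and 40.8%.

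Among type A and B gamma members, 3 of 12 and 1 of 7 were lower at 10% FDR by edgeR's quasi-likelihood test and none was higher. Pcdhga11 was at 9.31, 10.2 and 8.49 CPM in the young mice and 5.54, 5.55 and 6.82 in the old mice, with no overlap. Its log2 fold change was -0.65 (SE 0.15, adjusted p = 0.0539). Pcdhga6 went from 17.1, 16.0 and 17.4 CPM to 10.7, 11.0 and 13.2, also without overlap (log2 fold change -0.54, SE 0.12, adjusted p = 0.0552). The fall was larger in Pcdhga5, from 11.5, 12.1 and 11.0 CPM to 6.10, 4.85 and 9.29, a log2 fold change of -0.77 (SE 0.21, adjusted p = 0.0626).

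Pcdhgb2, of type B, had 5.00, 6.89 and 6.26 CPM at 6 months and 2.62, 2.80 and 5.11 at 24 months. Mouse 5 lay within the young range, and the log2 fold change was -0.78 (SE 0.26, adjusted p = 0.0843 by the quasi-likelihood test of edgeR). In all 4 of these members mouse 5 was the old mouse nearest to the young ones. The most abundant members of types A and B, Pcdhga7 and Pcdhgb6, did not pass. Pcdhga7 was at 20.0, 19.5 and 19.7 CPM against 13.1, 13.6 and 18.7, without overlap (log2 fold change -0.38, SE 0.15). Pcdhga12 was at 15.8, 20.0 and 16.3 CPM against 12.3, 14.0 and 16.3, and Pcdhgb6 at 12.2, 13.1 and 10.9 against 7.15, 9.74 and 11.2, both with overlap. Pcdhgb7 had 5.19, 5.97 and 4.92 CPM against 2.77, 4.25 and 4.58, without overlap and with a log2 fold change of -0.47 (SE 0.20).

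In the alpha cluster the fall was shared between the C-type and the alternate members. Pcdhac2, with more counts than the other alpha members together, was at 70.2, 101.4 and 82.4 CPM in mice 10, 11 and 17 and at 50.7, 62.1 and 72.2 in mice 2, 4 and 5. The ages overlapped, since mouse 5 lay just above mouse 10. Its log2 fold change was -0.46 (SE 0.16, adjusted p = 0.0954 by edgeR's quasi-likelihood test), and with library totals it was -0.27 (adjusted p = 0.268). The 3 serotonergic neuron markers summed to 0.956 to 1.20 CPM at 6 months and 0.954 to 1.60 at 24 months, so they overlapped between the ages, and 1 of them, the serotonin transporter Slc6a4, was called higher (4, 6 and 4 counts against 24, 13 and 10), while Tph2, the one with the most counts, had 30, 25 and 31 against 24, 17 and 24 (log2 fold change -0.45). Pcdhac1, the other C-type alpha member, was at 5.74, 6.78 and 6.35 CPM against 3.73, 3.44 and 5.29, without overlap (log2 fold change -0.60, SE 0.19, adjusted p = 0.0771).

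**Figure D4:**
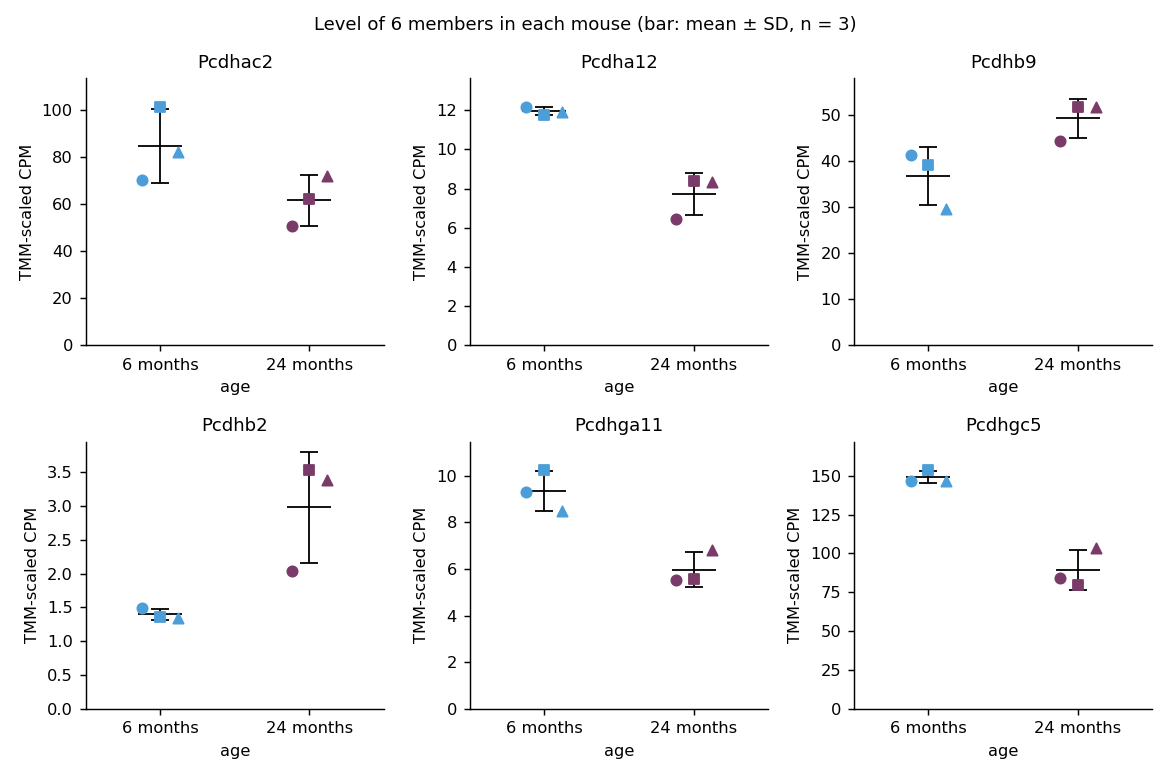
The level of 6 members in TMM-scaled CPM, with 1 point per mouse (circle, square and triangle for mice 10, 11 and 17 at 6 months and for mice 2, 4 and 5 at 24 months) and the mean ± SD (n = 3) as a bar. Old mice lie below young mice for Pcdha12, Pcdhga11 and Pcdhgc5 and above them for Pcdhb2 and Pcdhb9, and the ages overlap for Pcdhac2.

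Over all genes tested, 8.33% were lower and 10.0% higher at 10% FDR by the quasi-likelihood test of edgeR. Of the 12 alternate alpha members, 5 (41.7%) were lower and none was higher. Pcdha12, the most abundant, was at 12.2, 11.8 and 11.9 CPM in the young mice and at 6.47, 8.38 and 8.32 in the old mice, with a log2 fold change of -0.63 (SE 0.14, adjusted p = 0.0526). Pcdha7 went from 2.66, 3.07 and 2.63 CPM to 1.63, 1.59 and 1.70 (log2 fold change -0.76, SE 0.18, adjusted p = 0.0552). Pcdha6 went from 3.79, 6.49 and 4.12 CPM to 2.59, 2.80 and 2.76 (log2 fold change -0.82, SE 0.22, adjusted p = 0.0615). In these 3 members every old mouse was below every young mouse, and the old mice were close to each other in Pcdha6 and Pcdha7.

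Pcdha9 was at 8.56, 11.5 and 8.03 CPM against 5.39, 6.50 and 7.32, and Pcdha5 at 7.04, 9.24 and 6.84 against 3.91, 5.26 and 6.29, again without overlap, with log2 fold changes of -0.55 (SE 0.18) and -0.58 (SE 0.20). The other 7 alternate members had fitted log2 fold changes of -0.79 to 0.18 and no call. The share of the C-type members in the alpha counts overlapped between the ages (58.5, 62.8 and 63.4% against 63.0, 63.1 and 62.1%), so within the alpha cluster no shift between broadly used and alternate members was resolved. This differs in the values from the gamma cluster, where the C-type share dropped by 4.43 percentage points, although the difference between the clusters was not tested.

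The beta cluster held the 3 members called higher, or 13.6% of its members, near the 10.0% of all genes called higher. Pcdhb9, the most abundant, was at 41.3, 39.1 and 29.6 CPM in mice 10, 11 and 17 and at 44.4, 51.6 and 51.6 in mice 2, 4 and 5. All old mice lay above all young mice, and the log2 fold change was 0.42 (SE 0.14, adjusted p = 0.0815 by edgeR's quasi-likelihood test). As a share of beta counts it rose from 21.4, 19.7 and 16.8% to 26.9, 26.0 and 24.5%. Pcdhb2 was low but changed most, from 1.49, 1.36 and 1.34 CPM to 2.03, 3.53 and 3.38, a log2 fold change of 1.09 (SE 0.24, adjusted p = 0.0526). Its rise of about 2.13-fold did not overlap between the ages, and mouse 2 was nearest to the young mice. Per kb, Pcdhb2 went from 0.497 to 1.06 CPM, and with the sensory receptor density subtracted its log2 fold change was 1.21.

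Pcdhb8 was the third member called higher, and is named here because of its values and not by the rule. It was at 4.54, 5.45 and 2.50 CPM at 6 months and 5.42, 8.93 and 7.55 at 24 months, with mouse 2 just below mouse 11 (log2 fold change 0.81, SE 0.28, adjusted p = 0.0918). Of the beta members 4.55% were called lower, against 8.33% of all genes tested. The single beta member called lower was Pcdhb22, the last of the cluster, at 5.22, 5.74 and 5.07 CPM against 3.60, 3.38 and 4.32 without overlap (log2 fold change -0.50, SE 0.16, adjusted p = 0.0782). Pcdhb20 was at 21.2, 21.5 and 19.6 CPM against 14.3, 16.7 and 18.6, without overlap (log2 fold change -0.33, SE 0.13), and it was not called by the quasi-likelihood test of edgeR. Pcdhb7, at 18.9, 16.1 and 14.3 CPM against 15.9, 18.2 and 16.3, overlapped, with a log2 fold change of 0.03 (SE 0.13).

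Position along the beta cluster went with the age difference. Over the 22 beta members in order, the log2 fold change fell with position (Pearson's r = -0.759, Spearman's rho = -0.755), a description over neighbouring genes of the same 6 libraries and not over independent samples. Without Pcdhb1 it was -0.72, and without Pcdhb2 as well, the member with the largest change, it was -0.668 (Pearson's r). The order of the members did not go with their level (Spearman's rho = 0.121). In the other clusters the same correlation was weak, at 0.259 over the 12 alternate alpha members and -0.143 over 18 gamma members of types A and B, Pcdhga10 left out.

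The cluster was then divided between Pcdhb9 and Pcdhb10, a division chosen after the values were seen and so given without a test. All 9 members from Pcdhb1 to Pcdhb9 were fitted higher at 24 months with TMM. Library totals raise the fold changes of all genes by about 0.19 in log2, so they could not reverse any of these. Shares of all genes by fitted direction were not counted. The 9 members summed to 83.4, 81.4 and 67.4 CPM at 6 months and 85.3, 103.4 and 103.6 at 24 months (ratio 1.26). Of the 13 members from Pcdhb10 to Pcdhb22, 11 were fitted lower with TMM and 9 with library totals. They summed to 109.8, 117.5 and 108.4 CPM against 79.4, 95.1 and 107.3, a ratio of 0.839. With library totals this ratio was 0.956 and the ages overlapped, whereas the ratio of the first 9 members was 1.44 without overlap. The first 9 members took 43.2, 40.9 and 38.3% of beta counts in the young mice and 51.8, 52.1 and 49.1% in the old mice, which does not depend on the scaling.

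**Figure D5:**
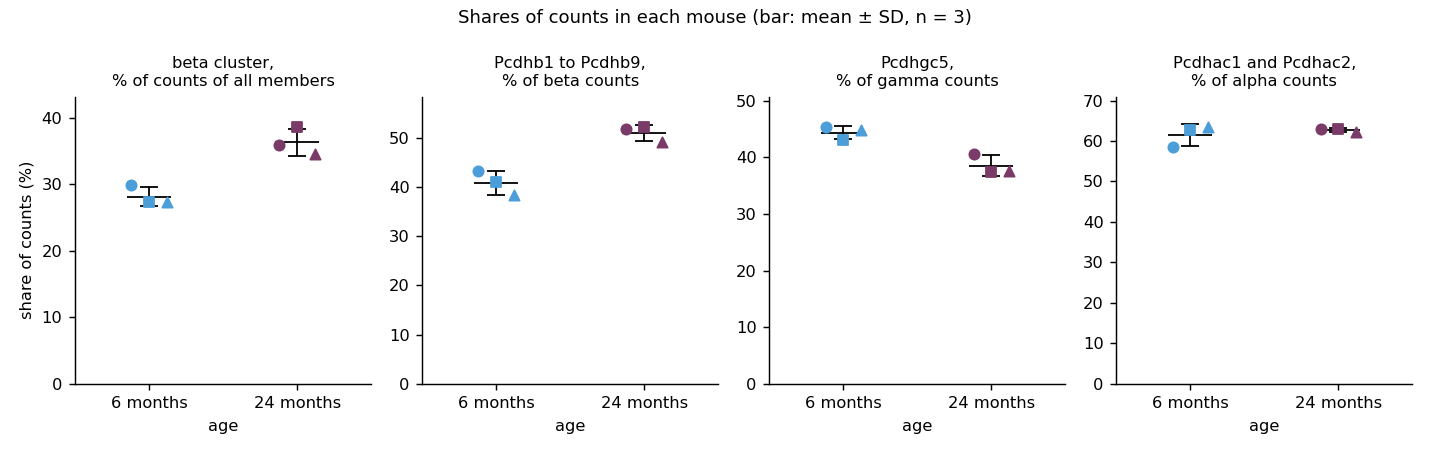
Shares of counts in percent, with 1 point per mouse (circle, square and triangle for mice 10, 11 and 17 at 6 months and for mice 2, 4 and 5 at 24 months) and the mean ± SD (n = 3) as a bar. The ages do not overlap for the beta cluster among all members, for Pcdhb1 to Pcdhb9 among beta counts and for Pcdhgc5 among gamma counts, and they overlap for the C-type members among alpha counts. The group Pcdhb1 to Pcdhb9 was chosen after the values were seen.

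Genes that act on or beside the clusters were taken from lists. Their calls stand beside 8.33% of all genes tested called lower and 10.0% called higher at 10% FDR. Genes above 1 CPM had a median log2 fold change of -0.14, and 0.05 with library totals, and calls were not counted for them alone. Of 15 regulators of the promoters, 5 were lower and 0 higher at 10% FDR by edgeR's quasi-likelihood test (median log2 fold change -0.18, and 0.01 with library totals). Ctcf, which loops a chosen promoter to its enhancer, had 928, 942 and 1021 counts in the young mice and 1010, 1031 and 1020 in the old mice (log2 fold change 0.04, SE 0.10). The regulators with the smallest p were Dnmt1, the maintenance DNA methyltransferase, at 1498, 1764 and 1487 counts against 1121, 1246 and 1378 (log2 fold change -0.39, SE 0.10, adjusted p = 0.0617), and the cohesin subunit Smc1a, at 2329, 2604 and 2379 against 1685, 2036 and 2167 (log2 fold change -0.36, SE 0.10, adjusted p = 0.064). With library totals both were closer to 0, at -0.20 and -0.17.

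Of 19 genes listed as cytoplasmic or cleavage partners of the protocadherins, 11 were lower and 0 higher at 10% FDR by edgeR's quasi-likelihood test. Over all genes tested, 8.33% were lower. The median log2 fold change of the list was -0.31, beside -0.14 for all genes above 1 CPM. Among them Brk1, a subunit of the WAVE complex that alpha protocadherins bind, went from 3862, 4138 and 4108 counts to 3065, 3290 and 3273 (log2 fold change -0.37, SE 0.08, adjusted p = 0.0526). The median of this list was -0.12 with library totals.

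The non-clustered protocadherins, single genes outside the 3 clusters, had 2 lower and 0 higher calls of 12 by the same test of edgeR, and a median log2 fold change of -0.27. Lower calls over all genes tested were 8.33%, and a difference from that share was not tested. Pcdh18 had 409, 441 and 412 counts against 274, 362 and 337 (log2 fold change -0.42, SE 0.13, adjusted p = 0.0719) and Pcdh11x 1769, 1574 and 1324 against 791, 1190 and 1292 (log2 fold change -0.57, SE 0.18, adjusted p = 0.0781). Both had every old mouse below every young mouse in counts. The other 10 had fitted log2 fold changes of -0.39 to 0.49 and no call.

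The genes around the clusters on chromosome 18 moved less than the alpha and gamma members. Of 15 neighbours, 2 were lower and 0 higher at 10% FDR by edgeR's quasi-likelihood test, with a median log2 fold change of -0.15, and 0.04 with library totals. These medians lay close to those of all genes above 1 CPM (-0.14 and 0.05), and 8.33% of all genes tested were lower. The 2 were Hars and Hars2, aminoacyl-tRNA synthetase genes upstream of the alpha cluster (log2 fold changes -0.32 and -0.30, SE 0.09 and 0.10, adjusted p = 0.0626 and 0.0938). Slc25a2 and Taf7, which lie between the beta and gamma clusters, had log2 fold changes of -0.09 (SE 0.44, at 5 to 15 counts) and -0.26 (SE 0.14). Diaph1, next to the end of the gamma cluster, had 924, 1084 and 1102 counts against 1035, 1078 and 1046 (log2 fold change -0.02, SE 0.10).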

How the data were processed

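Cortex RNA of 6 mice was sequenced with single-end reads of 75 bp, and the library labels give the age of each mouse. The authors trimmed the reads with Trim Galore 0.6.4, mapped them to GRCm38 with STAR 2.7.3a (GENCODE vM23 named in their methods) and counted them on exons per gene with featureCounts of Subread 2.0.0. All deposited counts (100%) were whole, although a fractional option is stated, and entered the tests unchanged. The deposited TPM values were computed by the authors from counts and the whole exonic length, which for 58 of 58 members equals that of GENCODE vM21, and served as an alternative only. Depth was 29495379 to 36494240 counts per mouse.

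The age fit used edgeR 4.0.16 (R 4.3.3) with TMM scaling, genes of at least 10 counts, the quasi-likelihood test without covariates and Benjamini-Hochberg adjustment over 32905 genes. Tested on simulated data for this comparison over 32905 genes, it recovered at 10% FDR 83 of 100 genes with a planted log2 change of size 1 and 100 of 100 of size 2. The planted genes all had means above 1 CPM. Recovery of smaller changes, as fitted for all members but Pcdhb2, was not simulated. Alternatives were edgeR's likelihood ratio and exact tests, DESeq2 1.42.0 (5745 adjusted p-values not given), its size factors, library totals, 2 other filters, subtraction of the sensory receptor density, and each mouse left out in turn. Summaries used pandas 2.3.3, scipy 1.17.1 and numpy 2.4.6 in Python 3.11.15. The files' symbols were kept (vM21 names the gene called Pcdha10 there Pcdha11), and 55240 of 55421 identifiers were found in vM21.

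Named members were the C-type members, the 3 most abundant of each alternate class, the 3 of smallest p per cluster and up to 12 past 10% FDR. From each other list the 2 genes of smallest p, Ctcf, Slc25a2, Taf7 and Diaph1 were named, apart from 1 gene that is not reported here. Members and lists were chosen with earlier results of these data known. Further marker lists were those of red blood cells (54.4 to 75.9 CPM summed at 24 months, 73.6 to 93.5 at 6 months) and serotonergic neurons. The mice carry different numbers at the 2 ages, and nothing states a batch. Base sequences are not printed.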

Additional observations from a re-analysis of the deposited data

How the results depend on the processing

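Calls at 10% FDR moved with several settings. With library totals, 2 alpha, 0 beta and 2 gamma members were lower, with filterByExpr 2, 0 and 3, and with no filter beyond 1 count 4 alpha and 0 beta. Lower calls over all genes dropped too, from 2741 to 318, 430 and 1377. With the sensory receptor density subtracted over whole exonic lengths there were 0 calls in each cluster, in either direction. The log2 ratios of the sums were then -0.39 (alpha), 0.14 (beta) and -0.42 (gamma). At 1% FDR the likelihood ratio test called 4 members, the exact test 2 and DESeq2 1. Leaving out each mouse gave 0 to 10 lower alpha members, 0 to 6 lower and 0 to 1 higher beta members and 0 to 14 lower gamma members, and the cause was not tested. Medians ranged over these fits from -0.74 to -0.38 (alpha), -0.17 to 0.03 (beta) and -0.53 to -0.27 (gamma), and the log2 ratios of the sums from -0.63 to -0.36, -0.06 to 0.11 and -0.68 to -0.46. The shares within clusters changed by 5.27 to 7.54 (Pcdhb9), -6.84 to -5.24 (Pcdhgc5), -5.63 to -3.58 (C-type gamma) and -0.33 to 2.12 (C-type alpha) percentage points. The log2 ratio of the sums was 0.21 (beta) and -0.35 (gamma) with library totals, 0.17 for beta in deposited TPM, and -0.20, 0.32 and -0.24 (alpha, beta, gamma) relative to neuron markers. The median of beta members turned from -0.06 to 0.14 with library totals. Of the named members only Pcdhb7, which had no call, changed sign, at -0.06 without mouse 17 and -0.02 without mouse 4. Members with few counts, such as Pcdhb1 and Pcdha4, are limited by depth. No paired analysis was possible because the mice of the 2 ages share no number.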
